A study of Mus musculus with 12 samples.

Results

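The kidneys of wild-type (WT) mice 4 h after warm ischemia were set against kidneys of WT mice without ischemia. These were 3 arrays against 3, chosen by their sample labels, of 12 arrays in the series, and the other 6 held HDAC2-/- kidneys with and without ischemia. Mice of both WT groups were females aged 8 to 12 weeks whose genotype is labelled Wild type ERT2cre. They carried no floxed gene by these labels, and both groups had received tamoxifen at 100 mg/kg on 5 days, followed by 7 days of recovery. The methods name a ubiquitin C promoter for the Cre transgene and also describe plain WT B6 controls. In ischemic WT mice the left renal pedicle was clamped for 28 min under pentobarbital, the clamp was released and the right kidney was taken out. No sham operation is mentioned for the WT mice without ischemia, so anesthesia, surgery, removal of the other kidney and ischemia cannot be told apart. The tissue is renal cortex in the labels and whole kidney in the methods. Each array held the RNA of 1 mouse, and values are log2 expression after robust multiarray average normalization, given below for replicates 1, 2 and 3 in that order.

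The kidney reabsorbs most of its filtrate in the proximal tubule, a segment that depends on oxidative metabolism, and adjusts the rest in the loop of Henle, the distal convoluted tubule and the collecting duct. Interrupted blood flow stops mitochondrial ATP production, and reperfusion brings oxidants, misfolded proteins and inflammatory signals. Immediate early genes and heat shock genes are among the first to be transcribed after such a stress, and tubular injury genes and leukocyte entry follow over hours.

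At an adjusted p under 0.05 from limma, 2258 of 34472 probe sets were higher (6.55%) and 2472 were lower (7.17%) in ischemic WT than in WT kidneys. Counting each gene once, through its probe set with the highest mean, 1826 of 22180 genes were higher (8.23%) and 1957 were lower (8.82%). The median difference over all genes was -0.02. Rises were larger than falls: the median called rise was 0.83 and the median called fall was -0.73, with 611 genes at least 2-fold higher and 311 at least 2-fold lower. At least 4-fold, 74 genes were higher and 10 were lower. The 3 arrays of each group did not overlap in 33.1% of all genes, and the median SE of a difference was 0.17. Without WT 2, the array whose removal changed the totals most, 1323 probe sets were higher and 1352 lower.

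**Figure D1:**
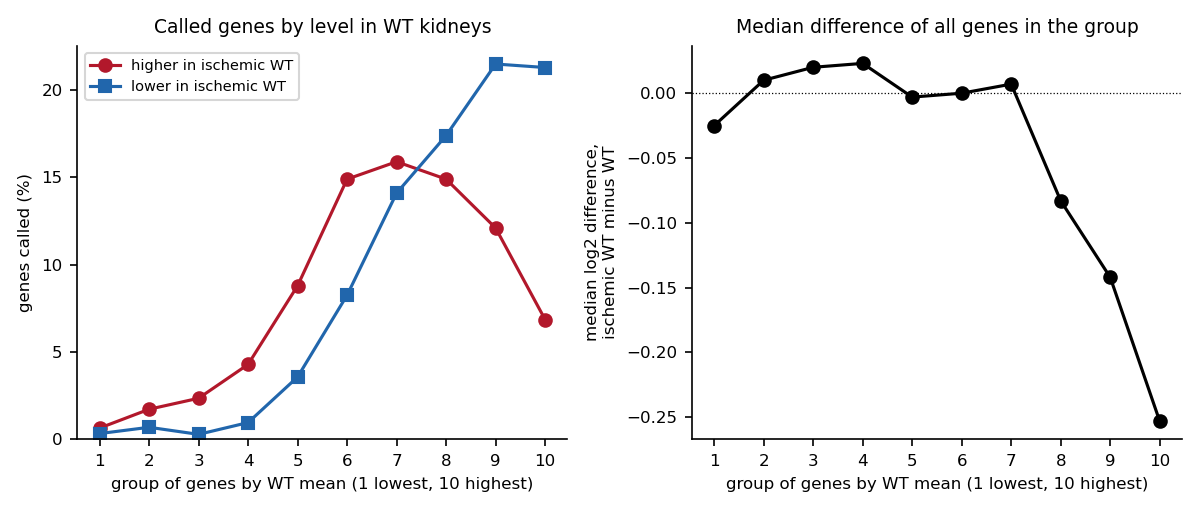
Share of genes called at adjusted p under 0.05 (left, %) and median log2 difference of ischemic WT minus WT (right) in 10 groups of 2218 genes ordered by their mean log2 value in WT kidneys. Calls of higher genes peaked at 15.9% in group 7, calls of lower genes reached 21.5% in group 9, and the median difference was -0.25 in group 10.

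The direction of the calls followed the level of the gene, so many lists and families of high or low level are also set beside the level group that holds their median WT level. In the 2218 genes with the highest WT means, 6.85% were higher and 21.3% were lower in ischemic WT kidneys. In the seventh of the 10 groups 15.9% were higher and 14.1% lower, and in the group with the lowest means 0.631% and 0.316%. The WT values enter both the level and the difference, so the genes were also ordered by the 3 HDAC2-/- arrays without ischemia. The group with the highest level then had 7.39% of genes higher and 20.4% lower, with a median difference of -0.24.

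Several arrays stood apart within their group. WT 1 had a mean of 8.62 over 4 markers of the thin limb and inner medulla, against 7.26 and 7.62 in WT 2 and WT 3, and 10.62 over 10 markers of the thick ascending limb, against 10.06 and 10.13. Slc14a2, a urea transporter of the inner medulla, was 5.91, 5.65 and 5.65 in ischemic WT kidneys, against 7.34, 5.57 and 6.15 in WT kidneys, with WT 1 highest. Ischemic WT 2 had the lowest mean of 85 small nuclear and nucleolar RNAs, at 8.02, against 8.76 and 8.92 in ischemic WT 1 and 3 and 8.3 to 9.05 in WT kidneys. Correlations across probe sets were 0.983 to 0.992 within and 0.968 to 0.983 between the WT groups.

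**Figure D2:**
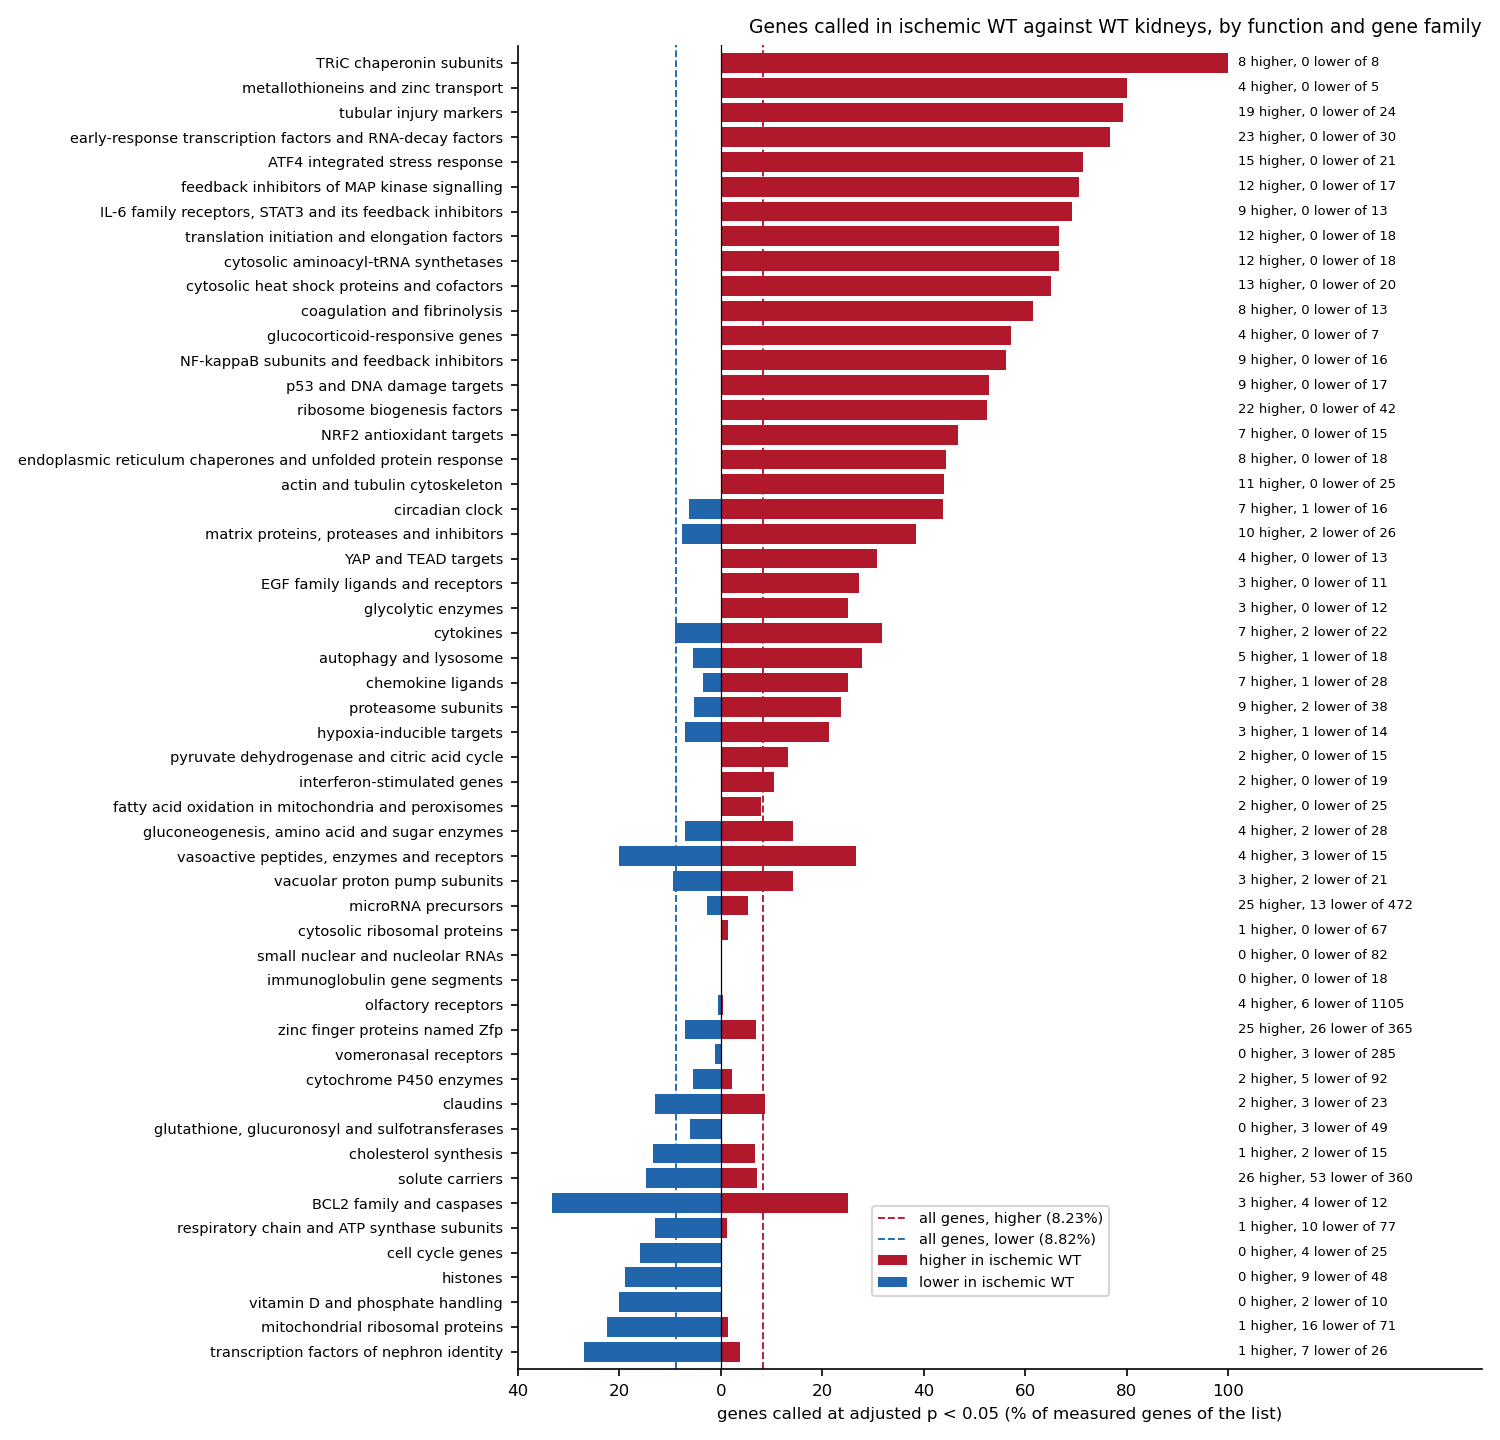
Share of measured genes called higher (red, to the right) and lower (blue, to the left) at adjusted p under 0.05 in ischemic WT against WT kidneys, for each functional list and gene family of at least 5 measured genes, with the counts at the right and the shares over all genes as dashed lines. All 8 TRiC subunits stand at the top, and transcription factors of nephron identity, with 1 gene higher and 7 lower of 26, stand at the bottom.

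Genes of immediate early transcription stood among the most often raised groups. Of 30 measured early-response transcription factors and RNA-decay factors, 23 rose (76.7%, against 8.23% of all genes) and none was called lower (1 without ischemic WT 1), with a median difference of 1.48. Atf3, a stress-induced bZIP repressor, was 11.53, 11.61 and 11.43 in ischemic WT kidneys, against 6.84, 7.19 and 6.6 in WT kidneys (log2 difference 4.65, SE 0.29, adjusted p = 9.47e-07). Fosb, an AP-1 subunit, was 10.98, 10.29 and 11.12 in ischemic WT kidneys, against 6.77, 7.15 and 7.34 in WT kidneys (log2 difference 3.71, SE 0.3, adjusted p = 7.39e-06). In both genes every ischemic kidney lay far above every WT kidney. Klf6, a zinc finger factor induced in injured epithelium, was 12.6, 12.79 and 12.48 in ischemic WT kidneys, against 9.95, 10.08 and 10.12 in WT kidneys (log2 difference 2.57, SE 0.17, adjusted p = 2.01e-06). Myc, the growth-promoting bHLH factor, rose by 2.35 (SE 0.2). The classical AP-1 genes moved less than Atf3: Jun rose by 2.07 (SE 0.41) and Fos by 1.96 (SE 0.42).

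Inhibitors that are induced by MAP kinase signalling and shut it off rose with them. Of 17 measured feedback inhibitors, 12 rose (70.6%) and none was called lower. The dual-specificity phosphatases Dusp9 and Dusp15 were not in this list and fell by 1.79 and 1.94. Dusp5, a nuclear ERK phosphatase, was 10.08, 10.04 and 9.92 in ischemic WT kidneys, against 6.75, 7.03 and 7.18 in WT kidneys (log2 difference 3.03, SE 0.17, adjusted p = 5.44e-07). Dusp8, a phosphatase of JNK and p38, was 9.98, 9.29 and 9.87 in ischemic WT kidneys, against 7.01, 6.76 and 6.62 in WT kidneys (log2 difference 2.92, SE 0.22, adjusted p = 4.58e-06). Both were low in every WT kidney and did not overlap. Dusp16 rose by 1.61, and Spry4, an inhibitor of receptor tyrosine kinase signalling, by 0.98. Dusp1 was called higher by 0.86 (SE 0.2), a call that was lost without WT 2 (difference 0.73). Among 11 EGF family ligands and receptors, 3 rose (27.3%) and none was called lower (1 without HDAC2-/- 3). They were the ligands Hbegf, up by 2.7 (SE 0.32), and Nrg1, up by 2.53 (SE 0.19), and the receptor Egfr, up by 1.42 (SE 0.19). Nrg1 was 10.67, 11.11 and 10.63 in ischemic WT kidneys, against 8.23, 8.3 and 8.3 in WT kidneys, with little spread among the WT kidneys. Egf itself, made in the distal nephron, was 11.29, 12.12 and 11.15 in ischemic WT kidneys, against 11.27, 10.86 and 11 in WT kidneys, and its groups overlapped.

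**Figure D3:**
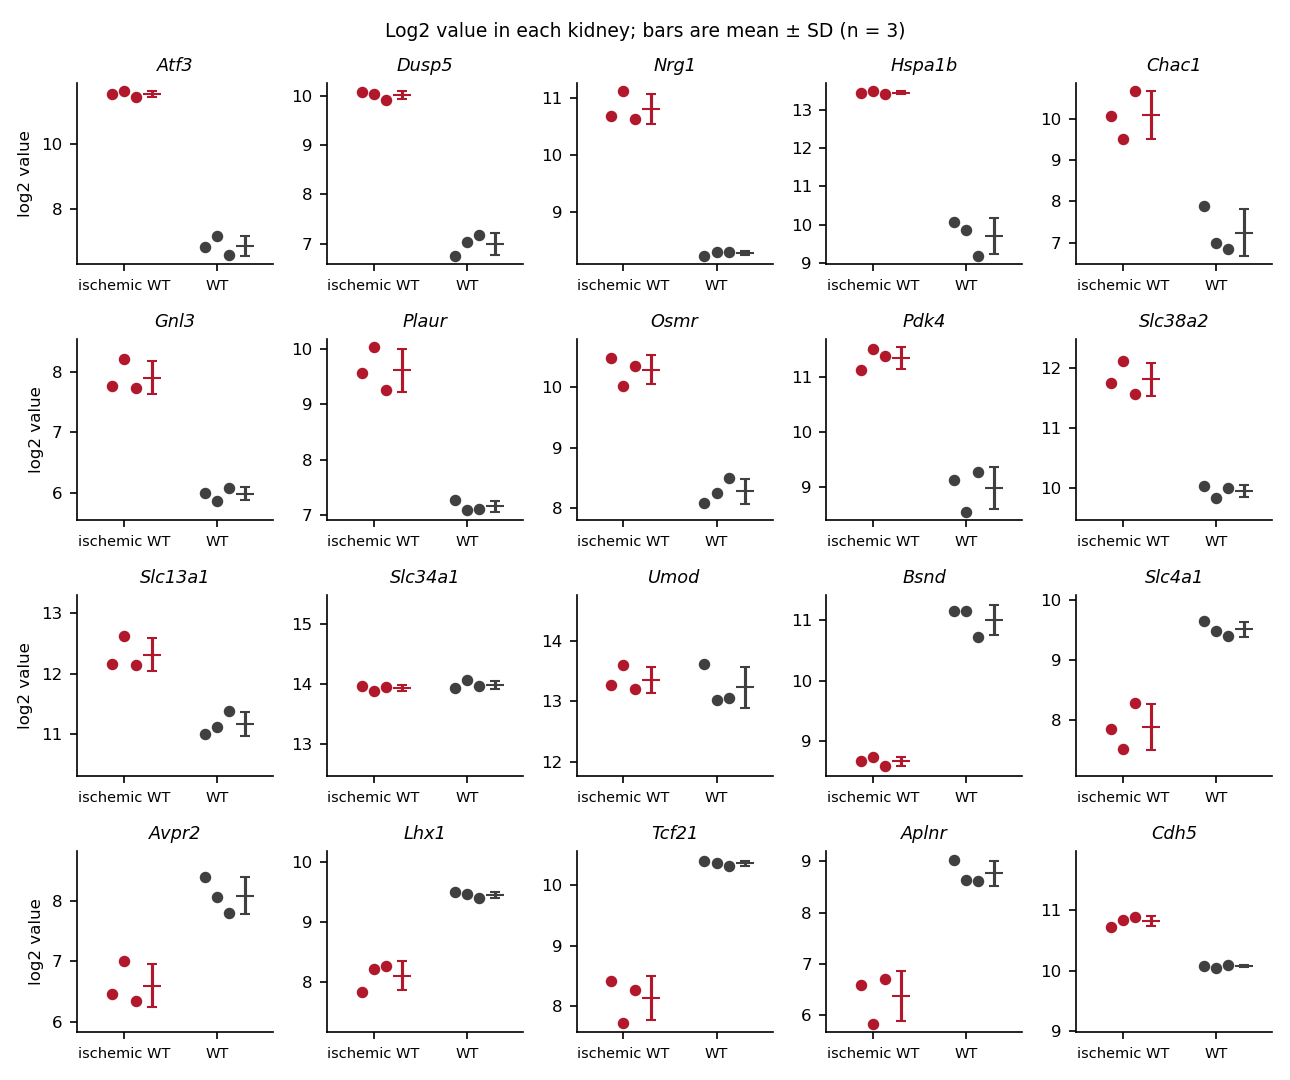
Log2 value (y axis) of 20 genes in each of 3 ischemic WT kidneys (red points) and 3 WT kidneys (grey points), with the mean and SD of each group beside the points. The groups do not overlap for any gene except Slc34a1 and Umod, whose levels in ischemic WT kidneys lie within the range of WT kidneys or next to it.

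Cytosolic chaperones formed a second raised group. Of 20 measured heat shock proteins and cofactors, 13 rose (65%) and none was called lower, with a median difference of 0.94. Hspa1b, an inducible Hsp70, was 13.46, 13.49 and 13.41 in ischemic WT kidneys, against 10.07, 9.86 and 9.18 in WT kidneys (log2 difference 3.75, SE 0.28, adjusted p = 4.17e-06). Its near-identical neighbour Hspa1a was 12.99, 13 and 12.99 in ischemic WT kidneys, against 10, 10.1 and 9.42 in WT kidneys, and the probe sets of this pair can share signal. Hsph1, a nucleotide exchange factor of Hsp70, rose by 3.62 (SE 0.3), and Hspb1, a small heat shock protein, by 2.76 (SE 0.25). Hsp90aa1, the inducible Hsp90, was 8.96, 8.98 and 9.18 in ischemic WT kidneys, against 6.64, 6.24 and 6.43 in WT kidneys (log2 difference 2.6, SE 0.2, adjusted p = 5.56e-06). Hspa8, the constitutive Hsp70, started from a high level and was 13.1, 13.26 and 12.93 in ischemic WT kidneys, against 12.38, 12 and 11.96 in WT kidneys (log2 difference 0.98). All 8 subunits of TRiC, the ring that folds actin and tubulin, were called higher, by between 0.57 and 1.02. Cct3 was 8.82, 8.79 and 8.52 in ischemic WT kidneys, against 7.79, 7.72 and 7.76 in WT kidneys, and Cct6a and Tcp1 rose by 1.02 and 0.92. Without WT 2 or without ischemic WT 2, 5 of the 8 subunits were called.

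Promoters of the heat shock list often held the heat shock element. In the 300 bases from 250 before to 50 after the RefSeq start (assembly GRCm38.p6), the letters GAANNTTC, which read the same on both strands, were found in 9 of 17 promoters of the list (52.9%), against 7.1% of the promoters of all 16990 genes that had one. Among all genes called higher the share was 6.27%, near that over all promoters. In the list, Hspb8, Hspe1 and Fkbp4 held the element and were not called. The stretches below show it before the start of Hspa1b at chr17:34959299-34959358 (minus strand) and Hspb1 at chr5:135887789-135887848 (plus strand), read 5′ to 3′ on the strand of the gene, with the motif in capitals.
Hspa1b: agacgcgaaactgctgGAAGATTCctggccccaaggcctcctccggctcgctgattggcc
Hspb1: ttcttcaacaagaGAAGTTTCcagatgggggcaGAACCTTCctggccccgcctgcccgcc

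Genes of the integrated stress response and of the machinery of protein synthesis rose together. Of 21 measured genes of the ATF4 response, 15 rose (71.4%) and none was called lower, with a median difference of 1.11. Left-out arrays gave 2 lower calls without HDAC2-/- 3 and 1 without ischemic HDAC2-/- 1 or WT 3. Chac1, a glutathione-degrading enzyme, was 10.08, 9.51 and 10.67 in ischemic WT kidneys, against 7.89, 7 and 6.85 in WT kidneys (log2 difference 2.84, SE 0.33, adjusted p = 0.000145). Cebpb, a bZIP partner of ATF4, was 10.02, 9.26 and 10.26 in ischemic WT kidneys, against 7.99, 7.71 and 8.01 in WT kidneys (log2 difference 1.94, SE 0.21, adjusted p = 8.84e-05). Mthfd2, a mitochondrial folate enzyme, rose by 1.69 (SE 0.17). Asns, asparagine synthetase, was 8.07, 8.57 and 7.95 in ischemic WT kidneys, against 6.91, 6.37 and 6.36 in WT kidneys (log2 difference 1.65, SE 0.21, adjusted p = 0.000265), and Atf4 itself rose by 1.11 (SE 0.13). Of 18 measured cytosolic aminoacyl-tRNA synthetases, which load amino acids onto tRNAs, 12 rose (66.7%) and none was called lower. Nars rose by 1.37, Eprs by 1.3, Tars by 1.28, Iars by 1.23 and Gars by 0.89. Nars was 9.55, 10.62 and 9.22 in ischemic WT kidneys, against 8.55, 8.33 and 8.39 in WT kidneys, with ischemic WT 2 highest. Ischemic WT 2 also had the highest mean over the list, at 9.18, against 8.53 and 8.41 in ischemic WT 1 and 3 and 7.86 to 8.01 in WT kidneys.

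A composite C/EBP-ATF element, searched as TGATGNAA and its reverse complement TTNCATCA, was present in 5 of 19 promoters of the ATF4 list (26.3%) and in 4 of 11 promoters of the synthetases (36.4%). The share was 3.47% over all genes, 3.66% in genes called higher and 2.64% in genes called lower. The stretches below hold it in capitals before the start of Asns (chr6:7693210-7693259 (minus strand)), Chac1 (chr2:119351032-119351081 (plus strand)), Slc7a11 (chr3:50443644-50443693 (minus strand)), Gars (chr6:55037951-55038000 (plus strand)) and Tars (chr15:11399659-11399708 (minus strand)). Slc7a11, the cystine importer, has 2 copies in opposite orientation.
Asns: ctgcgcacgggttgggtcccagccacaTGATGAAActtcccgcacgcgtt
Chac1: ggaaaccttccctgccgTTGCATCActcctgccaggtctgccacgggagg
Slc7a11: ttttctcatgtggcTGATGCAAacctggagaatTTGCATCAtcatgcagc
Gars: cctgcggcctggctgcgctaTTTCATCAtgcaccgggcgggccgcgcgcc
Tars: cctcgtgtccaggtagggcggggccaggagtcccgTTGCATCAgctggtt

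Many genes of ribosome assembly rose, while few genes of the ribosome itself were called higher. Of 42 measured ribosome biogenesis factors, 22 rose (52.4%) and none was called lower. Gnl3, the nucleolar GTPase nucleostemin, was 7.77, 8.22 and 7.73 in ischemic WT kidneys, against 6, 5.87 and 6.08 in WT kidneys (log2 difference 1.92, SE 0.16, adjusted p = 9.79e-06). Nop58, a core protein of box C/D particles, was 8.1, 7.93 and 7.74 in ischemic WT kidneys, against 6.35, 5.82 and 6.17 in WT kidneys (log2 difference 1.81, SE 0.19, adjusted p = 7.25e-05). Gtpbp4 rose by 1.76, Heatr1 by 1.61, Nop56 by 1.29 and Ncl, nucleolin, by 1.01. Of 18 translation initiation and elongation factors, 12 rose and none was called lower, and without WT 1 the count was 7. Eif1a, which scans for the start codon, was 9.34, 8.94 and 9.07 in ischemic WT kidneys, against 7.44, 7.48 and 7.61 in WT kidneys (log2 difference 1.61, SE 0.17, adjusted p = 5.26e-05). Eif5 rose by 1.33, Eif3a by 1.17, Eif3c by 1.09 and Eif4e by 0.6, and the elongation factor Eef2 was 12.98, 13.36 and 12.87 in ischemic WT kidneys, against 13.29, 12.99 and 12.75 in WT kidneys. In the 67 cytosolic ribosomal proteins the median difference was 0. One of them, Rpl4, was called higher (3 proteins without HDAC2-/- 3, and 2 without HDAC2-/- 1, HDAC2-/- 2, ischemic HDAC2-/- 3 or WT 3), by 0.57, a call that was lost without WT 1, WT 2, WT 3, ischemic WT 1 or ischemic WT 2 (difference 0.38 to 0.62). In the 71 mitochondrial ribosomal proteins, 16 fell (22.5%) and 1 rose, with a median of -0.33. In the ninth level group, which holds the median WT level of this family (8.61), 21.5% of all genes fell, so the share of falls was near that of genes of like level. The median over that group was -0.14, so the family's median lay lower. The mean over the 71 was 8.157, 8.223 and 8.317 in ischemic WT kidneys, against 8.522, 8.545 and 8.531 in WT kidneys. Mrpl36 was 7.69, 7.18 and 7.72 in ischemic WT kidneys, against 8.4, 8.37 and 8.34 in WT kidneys (log2 difference -0.84, SE 0.15, adjusted p = 0.00255), and Mrps36 and Mrpl34 fell by 0.87 and 0.73. The exception was Mrps18b, which rose by 0.59. The count of falls was 6 without WT 2, 8 without WT 1 or ischemic WT 2, and 10 without WT 3 or ischemic WT 1.

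Genes of the unfolded protein response of the endoplasmic reticulum were raised in part. Of 18 measured genes, 8 rose and none was called lower, a count that was 3 without WT 2 and 4 without WT 3, ischemic WT 1 or ischemic WT 2. Hspa5, the chaperone BiP, was 9.36, 9.6 and 9.09 in ischemic WT kidneys, against 8.51, 7.79 and 7.62 in WT kidneys (log2 difference 1.38, SE 0.24, adjusted p = 0.00209). Dnajb9, its cofactor, rose by 0.98, and Hsp90b1, the reticular Hsp90, by 0.97. The transcription factor Xbp1 was 11.37, 11.69 and 11.35 in ischemic WT kidneys, against 11.23, 10.61 and 10.46 in WT kidneys, and its call was lost without HDAC2-/- 2, ischemic HDAC2-/- 3, WT 2, WT 3, ischemic WT 1, ischemic WT 2 or ischemic WT 3 (difference 0.55 to 0.76). In the proteasome family, 9 of 38 subunits rose (23.7%) and 2 fell (5.26%). In the eighth level group, which holds their median WT level of 8.29, 14.9% of all genes were higher and 17.4% lower. Psmd12, a lid subunit, rose by 0.95 (SE 0.18), while the immunoproteasome subunit Psmb9 was 6.7, 6.43 and 6.48 in ischemic WT kidneys, against 7.37, 7.27 and 7.44 in WT kidneys (log2 difference -0.82, SE 0.19, adjusted p = 0.0121). Psmd9, of proteasome assembly, was called lower by 0.45, but not without HDAC2-/- 1, HDAC2-/- 2, ischemic HDAC2-/- 2, ischemic HDAC2-/- 3, WT 1, WT 2, WT 3, ischemic WT 1 or ischemic WT 2 (difference -0.51 to -0.38). The count of raised subunits was 1 without WT 2, 3 without ischemic WT 2 and 5 without WT 1 or WT 3.

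Antioxidant, metal-binding and DNA damage genes rose as smaller groups. Of 15 measured NRF2 targets, 7 rose (46.7%) and none was called lower. Hmox1, heme oxygenase, was 11.42, 12.05 and 12.27 in ischemic WT kidneys, against 8.57, 8.66 and 8.29 in WT kidneys (log2 difference 3.41, SE 0.23, adjusted p = 2.01e-06). Txnrd1, which reduces thioredoxin, was 10.41, 11.12 and 10.19 in ischemic WT kidneys, against 8.82, 8.45 and 8.45 in WT kidneys (log2 difference 2, SE 0.22, adjusted p = 7.51e-05), and Srxn1, sulfiredoxin, and Gclc, which makes the precursor of glutathione, rose by 1.95 and 1.59. Nqo1, often used to read NRF2 activity, was 8.01, 9.08 and 8.46 in ischemic WT kidneys, against 8.19, 7.74 and 8.35 in WT kidneys, and its groups overlapped. The core TGACNNNGC of the antioxidant response element, searched on both strands, was found in 5 of 12 promoters of these targets (41.7%), against 13.3% of all genes. It was in 17.7% of genes called higher and 14% of genes not called at like levels. Of the target genes that held it, Srxn1 and Nfe2l2 rose, and Gclm, Me1 and Abcc4 were not called. Txnrd1, Osgin1 and Cbr3 rose and did not hold it. Of 5 metallothioneins and zinc transporters, 4 rose: Mt1 by 0.8, Mt2 by 0.68, the zinc importer Slc39a14 by 1.15 and Slc39a10 by 0.87.

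Of 17 measured p53 and DNA damage targets, 9 rose (52.9%) and none was called lower. Plk3, a stress kinase, was 12.06, 12.04 and 12.16 in ischemic WT kidneys, against 8.64, 8.62 and 9.2 in WT kidneys (log2 difference 3.27, SE 0.25, adjusted p = 4.78e-06). Cdkn1a, the cell cycle inhibitor p21, was 11.66, 11.66 and 11.8 in ischemic WT kidneys, against 9.76, 9.08 and 8.73 in WT kidneys (log2 difference 2.52, SE 0.34, adjusted p = 0.000432). Mdm2, the ubiquitin ligase of p53, rose by 1.17, Gadd45b by 1.66 and Plk2 by 1.45. The BCL2 family and caspases went both ways, with 3 of 12 higher (25%) and 4 lower (33.3%). In the eighth level group, which holds their median WT level of 8.3, 14.9% of all genes were higher and 17.4% lower. The antiapoptotic genes Mcl1 and Bcl2l1 rose, by 1.07 (SE 0.12) and 0.78 (SE 0.12), as did Casp8, the initiator caspase of death receptors, by 0.84. Mcl1 was 10.84, 10.66 and 10.8 in ischemic WT kidneys, against 9.71, 9.71 and 9.66 in WT kidneys. The proapoptotic genes Bik and Bok fell, by 0.88 and 0.88, and Bok was 8.28, 8.24 and 7.9 in ischemic WT kidneys, against 9.31, 9.01 and 8.73 in WT kidneys. Bmf and Bad, also proapoptotic, were called lower by 0.67 and 0.59. Without WT 2 or without ischemic WT 2 neither of these 2 was called, and Bmf was not called without WT 3. Bcl2 was 9.08, 8.93 and 9.16 in ischemic WT kidneys, against 9.41, 9.4 and 9.45 in WT kidneys and was not called (adjusted p = 0.0599).

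Many genes of NF-kappaB and IL-6 family signalling were called higher, and the activity of these pathways was not measured. Of 16 measured NF-kappaB subunits and inhibitors, 9 rose and none was called lower, and without WT 3 the count was 5. Nfkbiz, a nuclear IkappaB protein, was 8.65, 9.09 and 8.43 in ischemic WT kidneys, against 6.72, 6.89 and 6.97 in WT kidneys (log2 difference 1.86, SE 0.25, adjusted p = 0.000338). Bcl3, another of its kind, was 9.6, 9.35 and 9.45 in ischemic WT kidneys, against 7.91, 8.16 and 7.93 in WT kidneys (log2 difference 1.47, SE 0.15, adjusted p = 4.14e-05). Rel rose by 1.3 and Tnfaip3, the A20 deubiquitinase, by 1.22. Nfkbia, the classical inhibitor, was called higher by 0.85, but not without WT 3 (difference 0.79). Of 13 genes of IL-6 family receptors, STAT3 and its inhibitors, 9 rose (69.2%) and none was called lower (1 without ischemic HDAC2-/- 1). Osmr, the oncostatin M receptor, was 10.49, 10.02 and 10.36 in ischemic WT kidneys, against 8.08, 8.25 and 8.5 in WT kidneys (log2 difference 2.01, SE 0.18, adjusted p = 2e-05). Socs3, which blocks these receptors, was 9.81, 8.53 and 9.32 in ischemic WT kidneys, against 6.48, 6.94 and 7.17 in WT kidneys (log2 difference 2.36, SE 0.3, adjusted p = 0.000242). Stat3 rose by 1.43 and Jak2 by 1.52.

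Secreted mediators were called higher more often than lower. Of 28 measured chemokine ligands, 7 rose (25%, against 8.23% of all genes) and 1 fell. The mean over the 28 was 7.73, 6.9 and 7.11 in ischemic WT kidneys, against 6.69, 6.64 and 6.58 in WT kidneys. Cxcl1, which attracts neutrophils, was 9.11, 8.3 and 8.92 in ischemic WT kidneys, against 5.58, 5.16 and 5.67 in WT kidneys (log2 difference 3.31, SE 0.22, adjusted p = 2.01e-06). Ccl2, which attracts monocytes, was 10.49, 8.98 and 8.57 in ischemic WT kidneys, against 7.09, 7.45 and 7.27 in WT kidneys, with ischemic WT 1 highest. Ccl9 and Cxcl2 were also highest in ischemic WT 1 and rose by 1.93 (SE 0.41) and 1.86 (SE 0.41). The ligand that fell was Cxcl12, a homeostatic chemokine of stroma, at 10.06, 9.65 and 10.27 in ischemic WT kidneys, against 11.42, 11.08 and 11.09 in WT kidneys (log2 difference -1.2, SE 0.16, adjusted p = 0.000399). Of 22 cytokines, 7 rose (31.8%) and 2 were called lower, and their mean was 7.09, 6.67 and 6.68 in ischemic WT kidneys, against 6.28, 6.35 and 6.31 in WT kidneys. Il6 was 7.45, 6.37 and 5.16 in ischemic WT kidneys, against 3.47, 3.86 and 3.25 in WT kidneys (log2 difference 2.8, SE 0.49, adjusted p = 0.00203). The 3 ischemic kidneys differed widely from each other, and all lay above every WT kidney. A second ligand was called lower without ischemic WT 1 among the chemokines. Il34 and Csf1, both ligands of the CSF1 receptor, rose by 1.65 (SE 0.17) and 1.43 (SE 0.23). Il1b was 7.01, 6.15 and 6.3 in ischemic WT kidneys, against 5.18, 5.76 and 6.52 in WT kidneys, and its groups overlapped. The 2 cytokines called lower were Il15, whose call was lost without WT 2, WT 3, ischemic WT 1 or ischemic WT 2 (difference -0.72 to -0.46), and Ctf1, whose call was lost without WT 2, WT 3 or ischemic WT 2 (difference -0.9 to -0.75). Interferon-stimulated genes stayed near the background, with 2 of 19 called higher and a median of 0.11. Both calls, of Ifit1 and Ddx58, were lost without WT 1, without WT 2, without WT 3 and without ischemic WT 2. Without ischemic WT 1, 1 gene was called higher and 1 lower. Isg15 was 4.95, 4.73 and 4.96 in ischemic WT kidneys, against 4.95, 5.04 and 5.23 in WT kidneys.

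An NF-kappaB site, searched as GGGANTTTC and GAAANTCCC, was found in 4 of 19 chemokine promoters (21.1%), against 1.12% over all genes, 1.69% in genes called higher and 0.579% in genes called lower. The 4 were Cxcl1 and Cxcl2, which rose, and Cxcl3 and Cxcl9, which were not called. In the list of NF-kappaB subunits and inhibitors 1 of 14 promoters held the site (7.14%), that of Nfkbia. The site stands in capitals in the stretches before Cxcl1 (chr5:90891155-90891204 (plus strand)), Cxcl2 (chr5:90903789-90903838 (plus strand)) and Nfkbia (chr12:55492658-55492777 (minus strand)), which has 2.
Cxcl1: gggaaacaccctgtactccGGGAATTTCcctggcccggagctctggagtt
Cxcl2: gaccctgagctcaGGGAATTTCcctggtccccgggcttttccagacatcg
Nfkbia: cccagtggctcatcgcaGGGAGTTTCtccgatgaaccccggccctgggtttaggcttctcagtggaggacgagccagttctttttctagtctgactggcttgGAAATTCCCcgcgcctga

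Genes known from injured tubules rose in large part. Of 24 measured injury markers, 19 rose (79.2%) and none was called lower, with a median difference of 1.32. Krt20, a keratin that normal tubules lack, was 9.95, 11.73 and 9.6 in ischemic WT kidneys, against 4.98, 5.68 and 4.95 in WT kidneys (log2 difference 5.22, SE 0.42, adjusted p = 7.65e-06). Lcn2, the iron-scavenging protein NGAL, was 10.5, 10.63 and 10.49 in ischemic WT kidneys, against 7.26, 6.76 and 6.86 in WT kidneys (log2 difference 3.58, SE 0.18, adjusted p = 2.08e-07). Timp1, a protease inhibitor, was 9.18, 8.59 and 7.86 in ischemic WT kidneys, against 6.42, 6.15 and 5.79 in WT kidneys (log2 difference 2.42, SE 0.26, adjusted p = 7.37e-05), and Cldn4, a tight junction protein, rose by 2.41 (SE 0.35). Havcr1, which encodes KIM-1, was 7.6, 9.12 and 7.07 in ischemic WT kidneys, against 6.58, 5.81 and 5.88 in WT kidneys, and its call was lost without WT 2, WT 3 or ischemic WT 2 (difference 1.25 to 1.74). Lcn2 was nearly equal in the 3 ischemic kidneys, while Havcr1 and Krt20 were clearly highest in ischemic WT 2.

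Cytoskeletal and adhesion genes rose in part, and the common actins were not called. Of 25 genes of the actin and tubulin cytoskeleton, 11 rose (44%) and none was called lower. Tubb6, a beta tubulin, was 8.94, 9.69 and 8.93 in ischemic WT kidneys, against 6.9, 6.84 and 6.77 in WT kidneys (log2 difference 2.35, SE 0.26, adjusted p = 8.76e-05). Vcl, vinculin, rose by 1.45, Tpm4 by 1.34 and Myh9, the nonmuscle myosin, by 1.31. Actb was 11.91, 11.9 and 11.56 in ischemic WT kidneys, against 11.8, 11.7 and 11.56 in WT kidneys and Actg1 10.99, 11.32 and 10.95 in ischemic WT kidneys, against 10.99, 10.8 and 10.74 in WT kidneys, and in neither did the groups separate. Of 13 YAP and TEAD targets and cofactors, 4 rose (30.8%). Among them were the coactivator Wwtr1 (TAZ), up by 0.93 (SE 0.13), Tead1, up by 0.85, and Ccn1, up by 1.31 (SE 0.3), whereas Ccn2 was 11.16, 10.92 and 10.29 in ischemic WT kidneys, against 10.75, 10.52 and 10.27 in WT kidneys. Of 26 genes of matrix proteins, proteases and inhibitors, 10 rose (38.5%) and 2 were called lower (7.69%). Adamts1, a matrix protease, was 11.63, 12.26 and 11.59 in ischemic WT kidneys, against 9.32, 9.09 and 8.99 in WT kidneys (log2 difference 2.69, SE 0.19, adjusted p = 3.71e-06). Thbs1, thrombospondin 1, rose by 2.22 and Tnc, tenascin C, by 2.13 (SE 0.45). Adamts4 rose by 1.66, while its relative Adamts5 was 7.19, 7.21 and 6.88 in ischemic WT kidneys, against 8.24, 8.57 and 8.47 in WT kidneys (log2 difference -1.33, SE 0.2, adjusted p = 0.000709). The count of lower genes was 1 in 7 of the 12 fits with 1 array left out, those without WT 1, WT 2, ischemic WT 2, ischemic WT 3, HDAC2-/- 2, ischemic HDAC2-/- 2 or ischemic HDAC2-/- 3, and Adamts5 was called in every one of the 12. Fn1 and Mmp9 overlapped between the groups, with differences of -0.35 and -0.06.

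Coagulation and fibrinolysis genes rose on both sides of the balance. Of 13 measured, 8 rose (61.5%) and none was called lower. Plaur, the urokinase receptor, was 9.57, 10.03 and 9.25 in ischemic WT kidneys, against 7.27, 7.09 and 7.1 in WT kidneys (log2 difference 2.46, SE 0.24, adjusted p = 3.8e-05). F3, tissue factor, was 10.91, 11.15 and 10.48 in ischemic WT kidneys, against 9.18, 9.28 and 8.94 in WT kidneys (log2 difference 1.71, SE 0.29, adjusted p = 0.00151). Thbd, the anticoagulant thrombomodulin, rose by 1.95 (SE 0.21), and Plat, tissue plasminogen activator, by 1.6 (SE 0.17). Vasoactive genes were mixed, with 4 of 15 higher (26.7%) and 3 lower (20%). In the eighth level group, which holds their median WT level of 8.01, 14.9% of all genes were higher and 17.4% lower. Ptgs2, inducible cyclooxygenase, was 8.02, 7.42 and 6.62 in ischemic WT kidneys, against 4.5, 4.85 and 4.79 in WT kidneys (log2 difference 2.64, SE 0.46, adjusted p = 0.00199). Nt5e, which forms adenosine, rose by 1.36. Both natriuretic peptide receptors measured in the list fell, Npr3 by 1.12 (SE 0.17) and Npr1 by 1.08 (SE 0.14), and so did the angiotensin receptor Agtr1a, by 0.82. Npr1 was 7.53, 7.13 and 7.27 in ischemic WT kidneys, against 8.45, 8.41 and 8.3 in WT kidneys. Edn1, endothelin 1, and its receptor Ednrb were called higher by 1.04 and 0.87. Edn1 was not called without WT 2, WT 3 or ischemic WT 2 (difference 0.75 to 1.04), and Ednrb was not called without WT 1, WT 2 or ischemic WT 3 (difference 0.64 to 0.82). Without WT 2, 2 genes of this list were called higher.

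Few targets of hypoxia and enzymes of glycolysis were called, though the shares called higher were above that of all genes. Of 14 hypoxia-inducible genes, 3 rose (21.4%, against 8.23% of all genes) and 1 fell, with a median of 0.13. In the eighth level group, which holds their median WT level of 7.88, 14.9% of all genes were higher. Pfkfb3, which drives glycolytic flux, was 8.24, 8.37 and 8.45 in ischemic WT kidneys, against 6.88, 7.09 and 6.89 in WT kidneys (log2 difference 1.4, SE 0.2, adjusted p = 0.000626). P4ha1, a collagen prolyl hydroxylase, rose by 1.13 and Adm, adrenomedullin, by 0.77, while Egln1, an oxygen sensor, fell by 0.67. A second call of a lower gene appeared without ischemic WT 3 or HDAC2-/- 3. Vegfa was 10.7, 10.87 and 10.57 in ischemic WT kidneys, against 10.83, 10.96 and 10.74 in WT kidneys, and its groups overlapped. Of 12 glycolytic enzymes, 3 were called higher (25%), against 6.85% of all genes in the tenth level group, which holds their median WT level. Without WT 2 or without ischemic WT 2 only Hk2 remained, and 1 enzyme was called lower without HDAC2-/- 3. Hk2, the inducible hexokinase, was 6.71, 6.6 and 6.64 in ischemic WT kidneys, against 5.46, 5.82 and 5.72 in WT kidneys (log2 difference 0.98, SE 0.13, adjusted p = 0.000324), whereas Hk1 and Pkm differed by 0.11 and 0.26 with overlapping groups.

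In mitochondrial metabolism few enzymes were called. The lists of fatty acid oxidation and the citric acid cycle both have median WT levels in the tenth level group. In that group 6.85% of all genes were higher and 21.3% lower. Of 25 genes of fatty acid oxidation, 2 were called higher and none lower, with 3 lower without HDAC2-/- 3, and of 15 genes of pyruvate dehydrogenase and the citric acid cycle, 2 were called higher. The large change among them was Pdk4, the kinase that shuts off pyruvate dehydrogenase, at 11.14, 11.52 and 11.39 in ischemic WT kidneys, against 9.13, 8.55 and 9.27 in WT kidneys (log2 difference 2.37, SE 0.21, adjusted p = 1.58e-05). The other in fatty acid oxidation, Ppara, was called higher by 0.7, but not without WT 2 (difference 0.65). Both calls in the citric acid cycle, of Dld and Fh1, were lost without WT 1, without WT 2 and without ischemic WT 2, and 1 remained without WT 3 or ischemic WT 1. Ppargc1a, the coactivator of mitochondrial genes, was 9.71, 10.44 and 9.79 in ischemic WT kidneys, against 10.12, 9.91 and 10.04 in WT kidneys, and Cs, citrate synthase, was 11.38, 11.6 and 11.32 in ischemic WT kidneys, against 11.55, 11.42 and 11.4 in WT kidneys. Of 77 subunits of the respiratory chain and ATP synthase, 10 fell (13%) and 1 was called higher, with a median of -0.32. Their median WT level of 10.84 lies in the tenth level group, in which 21.3% of all genes fell and the median was -0.25, so the subunits were called lower less often than genes of like level. Ndufb11, a subunit of complex I, was 6.9, 6.18 and 7.23 in ischemic WT kidneys, against 7.62, 7.69 and 7.78 in WT kidneys (log2 difference -0.93, SE 0.21, adjusted p = 0.0105). Ischemic WT 2 was the lowest of the 6 arrays for Ndufb11 and for the mean over the 77 subunits, which was 10.14, 9.87 and 10.26 in ischemic WT kidneys, against 10.35, 10.42 and 10.5 in WT kidneys. The subunit called higher was Sdha of complex II, by 0.57, but not without WT 1, WT 2, WT 3 or ischemic WT 2 (difference 0.4 to 0.6). The count of falls depended on the arrays: it was 2 without WT 2, 3 without WT 3, 4 without ischemic WT 2, 5 without WT 1, 6 without ischemic WT 1 and 17 without ischemic WT 3.

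Enzymes of gluconeogenesis and amino acid handling changed in few cases. Of 28 measured, 4 were called higher (14.3%) and 2 lower (7.14%). In the tenth level group, which holds their median WT level of 10.81, 6.85% of all genes were higher and 21.3% lower. Gldc, of the glycine cleavage system, was 11.01, 11.6 and 11.09 in ischemic WT kidneys, against 10.16, 10.16 and 9.96 in WT kidneys (log2 difference 1.14, SE 0.19, adjusted p = 0.00132). Pck1, the gluconeogenic enzyme of the proximal tubule, was 12.97, 13.17 and 12.76 in ischemic WT kidneys, against 12.29, 12.06 and 12.03 in WT kidneys (log2 difference 0.84, SE 0.16, adjusted p = 0.00409), while G6pc, which acts later in the pathway, was 11.67, 12.48 and 12.03 in ischemic WT kidneys, against 12.38, 12.2 and 12.12 in WT kidneys. The number higher was 2 without WT 2. Gatm and Dao were the 2 called lower, by 0.45 and 0.47, and neither was called without WT 1, WT 2, WT 3, ischemic WT 1 or ischemic WT 2. Dao was also not called without ischemic HDAC2-/- 3. In cholesterol synthesis, Hmgcs1 rose by 0.93 and Dhcr7 fell by 0.93. Mvk was also called lower, by 0.77, but not without WT 2 or ischemic WT 1 (difference -0.68 to -0.66). The median WT level of genes of vitamin D and phosphate handling, 10.94, lies in the tenth level group as well, in which 21.3% of all genes fell. Of 10 such genes, 2 were called lower (20%). They were Pth1r, the parathyroid hormone receptor, at 10.9, 10.88 and 10.98 in ischemic WT kidneys, against 11.75, 11.77 and 11.5 in WT kidneys, which was not called without WT 2 (difference -0.7), and Cyp27b1, which makes active vitamin D and was not called without ischemic HDAC2-/- 1, ischemic HDAC2-/- 2, ischemic HDAC2-/- 3, WT 2, WT 3, ischemic WT 2 or ischemic WT 3 (difference -0.79 to -0.59). Cyp24a1, which degrades it, was 10.29, 11.17 and 10.14 in ischemic WT kidneys, against 7.61, 10.62 and 10.21 in WT kidneys, with WT 1 far below the other WT kidneys. In autophagy and lysosome, 5 of 18 genes were called higher (27.8%) and 1 lower (5.56%), and their median WT level lies in the tenth level group too. Gla, Ctsl and Becn1 rose, by 1.06, 0.76 and 0.68, and the number was 3 without WT 2, WT 3 or ischemic WT 2. Sqstm1, the selective autophagy receptor p62, was called higher by 0.8, but not without WT 2, WT 3 or ischemic WT 2 (difference 0.59 to 0.8). The 1 gene called lower was Mcoln1, which was not called without WT 1, WT 2, ischemic WT 1 or ischemic WT 2 (difference -0.59 to -0.54).

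Clock and glucocorticoid-responsive genes were higher as well. Of 16 measured clock genes, 7 rose and 1 was called lower. Nfil3, a repressor in the clock output, was 9.69, 9.31 and 9.41 in ischemic WT kidneys, against 7.82, 7.11 and 6.41 in WT kidneys (log2 difference 2.36, SE 0.32, adjusted p = 0.00037). Cry1 and Per1, which repress CLOCK and BMAL1, were higher: Cry1 was 7.19, 7.33 and 7.39 in ischemic WT kidneys, against 5.84, 5.95 and 5.95 in WT kidneys (log2 difference 1.39, SE 0.13, adjusted p = 3.41e-05), and Per1 was 11.61, 11.13 and 11.53 in ischemic WT kidneys, against 10.36, 9.88 and 10.34 in WT kidneys (log2 difference 1.23, SE 0.23, adjusted p = 0.00334). Ciart, a further repressor of that pair, rose by 1.4 (SE 0.33). The activator Arntl (BMAL1) was the gene called lower, by 0.62, but not without HDAC2-/- 1, HDAC2-/- 2, HDAC2-/- 3, ischemic HDAC2-/- 3, WT 1, WT 2, ischemic WT 1 or ischemic WT 3 (difference -0.65 to -0.46). Of 7 glucocorticoid-responsive genes, 4 rose. Fkbp5, a cochaperone of the glucocorticoid receptor, was 8.18, 8.39 and 8.67 in ischemic WT kidneys, against 7.41, 6.49 and 6.34 in WT kidneys (log2 difference 1.67, SE 0.25, adjusted p = 0.00071), and Zbtb16, Sgk1 and Klf9 were called higher by 1.65, 0.9 and 0.47. The call of Klf9 was lost without WT 1, WT 2, WT 3 or ischemic WT 3 (difference 0.4 to 0.48). Tsc22d3 was 7.85, 7.67 and 8.42 in ischemic WT kidneys, against 7.55, 7.13 and 7.23 in WT kidneys and was not called (adjusted p = 0.0529), but it was without HDAC2-/- 2, HDAC2-/- 3 or ischemic WT 2 (difference 0.68 to 0.83). The time of day at which kidneys were taken is not given in the sources used here, and its part in these genes was not tested.

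The E-box CACGTG, which reads the same on both strands and is bound by CLOCK and BMAL1 and by MYC, was found in 5 of 16 clock promoters (31.2%), in 8 of 36 promoters of ribosome biogenesis factors (22.2%) and in 8.18% of all promoters. It was in 11.3% of promoters of genes called higher, 8.11% of genes called lower and 10.4% of genes that were not called at like levels. Tef and Bhlhe41 of the clock, and Nop2, Nle1 and Imp4 of ribosome biogenesis, held it and were not called. The stretches below show it in capitals before Per1 (chr11:69098759-69098808 (plus strand)), Cry1 (chr10:85185085-85185134 (minus strand)) and Ciart (chr3:95882259-95882358 (minus strand)), which has 3.
Per1: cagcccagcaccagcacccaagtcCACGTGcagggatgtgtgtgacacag
Cry1: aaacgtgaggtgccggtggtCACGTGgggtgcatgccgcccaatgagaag
Ciart: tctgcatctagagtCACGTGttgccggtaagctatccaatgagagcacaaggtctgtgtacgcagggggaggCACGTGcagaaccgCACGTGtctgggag

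**Figure D4:**
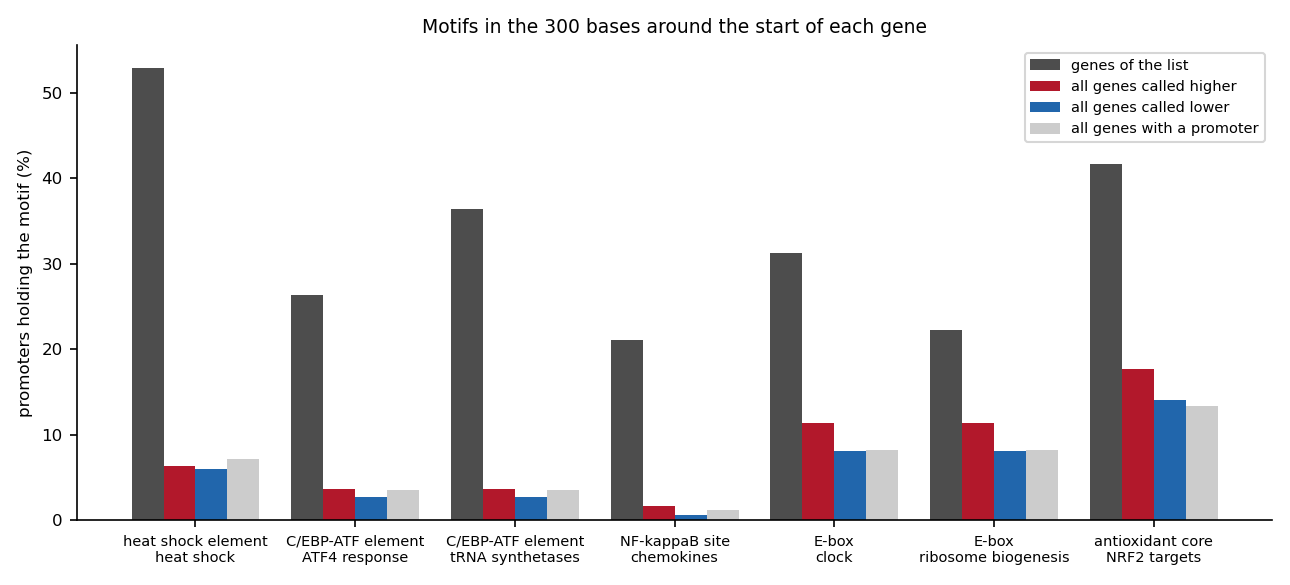
Share of promoters (y axis, %; 300 bases around the RefSeq start) that hold a motif, for the genes of 7 lists (dark grey), all genes called higher (red), all genes called lower (blue) and all 16990 genes with a promoter (light grey). The 7 pairs shown are part of those searched, and in each the list stands above the other bars, from 21.1% for the NF-kappaB site in chemokines to 52.9% for the heat shock element.

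Some of the pairs left out of the plot are as follows. The hypoxia response core ACGTG was in 9 of 13 promoters of hypoxia-inducible targets (69.2%). It was in 21.3% of all promoters, 28.2% of those of genes called higher and 25.2% of those of genes not called at like levels. The AP-1 letters were in 5 of 18 promoters of injury markers (27.8%), against 7.39% of all promoters. None of 7 TRiC promoters held the heat shock element. No promoter of 18 proximal tubule markers held the HNF1 site (GTTAATNAT, both strands), and of 23 promoters of early-response factors none held the AP-1 letters, 1 held the cyclic AMP response element and 2 held the CArG box of SRF. Such matches are letters in a window and not tested sites. Promoters also differed between the directions in a few motifs. The cyclic AMP response element TGACGTCA was in 4.08% of promoters of genes called higher, 1.48% of genes called lower and 3.17% of genes not called at like levels. The AP-1 letters TGANTCA were in 7.61%, 4.25% and 4.89%. The median count of CG pairs per promoter was 23 in genes called higher and 19 in genes called lower, against 20 in genes not called at like levels and 13 over all genes.

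Among genes of cell division, histones and zinc finger proteins, falls were at least as many as rises. Of 25 cell cycle genes, none was called higher and 4 were called lower (16%), with 1 called without WT 1 or without ischemic WT 2. In the sixth level group, which holds their median WT level of 6.91, 8.25% of all genes fell. E2f1, which drives entry into S phase, was 6.41, 6.21 and 6.19 in ischemic WT kidneys, against 7.26, 6.9 and 6.76 in WT kidneys (log2 difference -0.7, SE 0.15, adjusted p = 0.00572), and Mki67 was 6.22, 5.59 and 6.21 in ischemic WT kidneys, against 5.96, 5.99 and 5.95 in WT kidneys with overlapping groups. Of 48 histone genes, 9 fell (18.8%) and none was called higher, and without WT 1 the count was 5. In the fourth level group, which holds their median WT level, 0.947% of all genes fell. H1f10, a linker histone, was 6.74, 6.04 and 6.64 in ischemic WT kidneys, against 7.77, 7.72 and 7.84 in WT kidneys (log2 difference -1.3, SE 0.17, adjusted p = 0.000338). H2bc12 and H2bc21, both of histone H2B, fell by 1.55 and 1.06. Histone genes have near-identical copies, and their probe sets can share signal. Of 365 genes named Zfp, 25 rose and 26 fell, shares of 6.85% and 7.12%. In the fifth level group, which holds their median WT level of 6.19, 8.79% of all genes were higher and 3.56% lower. The largest changes were in Zfp948, up by 1.28, Zfp367, up by 1.27, Zfp467, down by 1.19, and Zfp750, down by 1.12. Without WT 2, 11 rose and 11 fell, and the number higher was 13 without WT 1 or ischemic WT 2 and 16 without WT 3, and the number lower 12 without ischemic WT 2, 14 without WT 3 and 16 without ischemic WT 1.

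**Figure D5:**
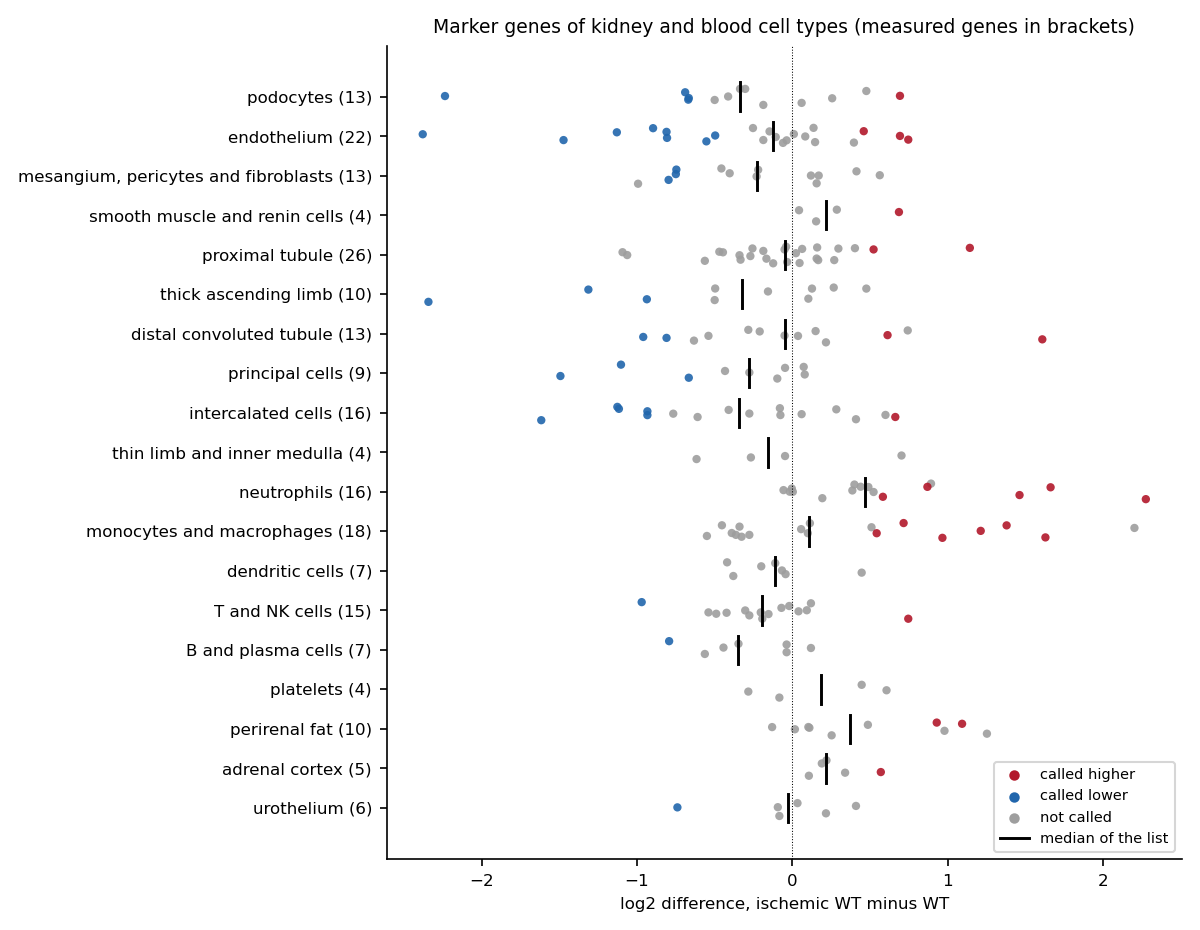
Log2 difference of ischemic WT minus WT (x axis) for each measured marker gene, by kidney, blood or neighbouring cell type (rows, with the number of measured markers), colored by the call, with the median of each list as a black bar. Proximal tubule markers lie around a median of -0.045 with 2 called higher of 26, while 8 of 22 endothelial and 5 of 16 intercalated cell markers were called lower.

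Some markers of the nephron segments were called lower and most were not called. The lists are short, and their shares are set beside genes of like level. In these bulk samples fewer cells of a type and less RNA per cell cannot be told apart. Proximal tubule markers were present at high levels and mostly not called. Of 26 measured, 2 were called higher and none lower, with a median of -0.045. Their median WT level of 11.59 lies in the tenth level group, in which 21.3% of all genes fell and the median was -0.25. The proximal tubule markers were thus called lower less often than genes of like level. With HDAC2-/- 3 left out 2 of these markers were called lower, and with the small RNA mean as a covariate 5. Slc34a1, the phosphate transporter, was 13.97, 13.88 and 13.95 in ischemic WT kidneys, against 13.93, 14.06 and 13.96 in WT kidneys, and Lrp2, the endocytic receptor megalin, was 11.92, 12.34 and 11.61 in ischemic WT kidneys, against 12.07, 11.68 and 11.62 in WT kidneys. In both the groups overlapped, with SE of 0.12 and 0.18. Slc13a1, the sulfate transporter, was 12.16, 12.63 and 12.15 in ischemic WT kidneys, against 11, 11.12 and 11.39 in WT kidneys (log2 difference 1.14, SE 0.17, adjusted p = 0.000793). The other marker called higher was Slc17a1, by 0.52, and its call was lost without HDAC2-/- 2, WT 1, WT 2, WT 3, ischemic WT 2 or ischemic WT 3 (difference 0.43 to 0.58).

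In the thick ascending limb the defining markers were not called, and genes of chloride exit and the paracellular path fell. Umod, uromodulin, was 13.27, 13.6 and 13.2 in ischemic WT kidneys, against 13.62, 13.02 and 13.05 in WT kidneys, and Slc12a1, the Na-K-2Cl cotransporter, was 11, 11.48 and 10.75 in ischemic WT kidneys, against 11.42, 10.33 and 10.68 in WT kidneys. Of 10 markers, 3 fell (30%) and none was called higher, and in the tenth level group, which holds the median WT levels of the thick ascending limb, principal cell and intercalated cell markers, 21.3% of all genes fell. Bsnd, the barttin subunit of the chloride channels, was 8.67, 8.74 and 8.58 in ischemic WT kidneys, against 11.15, 11.15 and 10.72 in WT kidneys (log2 difference -2.34, SE 0.23, adjusted p = 3.41e-05). Cldn19 and Cldn10, tight junction proteins that carry magnesium, calcium and sodium, fell by 1.31 (SE 0.24) and 0.94 (SE 0.14). Cldn19 was 8.69, 8.56 and 8.83 in ischemic WT kidneys, against 10.73, 9.65 and 9.64 in WT kidneys, with WT 1 highest, and the 3 calls were made in each of the 12 fits with 1 array left out, WT 1 included.

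In the distal convoluted tubule, Slc12a3, the thiazide-sensitive cotransporter, was 12.82, 13.15 and 12.9 in ischemic WT kidneys, against 12.86, 13.06 and 12.84 in WT kidneys. Of 13 markers, 2 were called higher (15.4%) and 2 lower (15.4%). In the ninth level group, which holds their median WT level of 9.47, 12.1% of all genes were higher and 21.5% lower. Trpv5, the apical calcium channel, was 10.12, 11.07 and 9.88 in ischemic WT kidneys, against 8.48, 8.79 and 8.97 in WT kidneys (log2 difference 1.61, SE 0.29, adjusted p = 0.00257). The 3 other calls were fragile: Wnk1 was higher by 0.61 but not called without WT 1, WT 2, WT 3 or ischemic WT 2 (difference 0.38 to 0.64), Klhl3 was lower by 0.81 but not called without WT 2 or ischemic WT 1 (difference -0.76 to -0.65), and Pvalb was lower by 0.96 but not called without WT 2, WT 3 or ischemic WT 2 (difference -0.86 to -0.73). In principal cells, Aqp2, the vasopressin-regulated water channel, was 11.34, 10.6 and 11.83 in ischemic WT kidneys, against 11.06, 11.15 and 11.32 in WT kidneys, and Scnn1g, an ENaC subunit, was 10.03, 10.52 and 9.94 in ischemic WT kidneys, against 9.95, 10.3 and 10.02 in WT kidneys. Of 9 markers, 3 fell (33.3%) and none was called higher. Avpr2, the vasopressin receptor, was 6.45, 7 and 6.34 in ischemic WT kidneys, against 8.4, 8.07 and 7.8 in WT kidneys (log2 difference -1.49, SE 0.23, adjusted p = 0.000887). Hsd11b2, which shields the mineralocorticoid receptor from glucocorticoids, was 11.07, 10.44 and 11.13 in ischemic WT kidneys, against 11.89, 12.09 and 11.97 in WT kidneys (log2 difference -1.1, SE 0.2, adjusted p = 0.00282). Fxyd4, a regulator of the sodium pump, was also called lower by 0.67, but not without WT 1 or WT 3 (difference -0.65 to -0.63).

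Of 16 intercalated cell markers, 5 fell (31.2%) and 1 rose. Slc4a1, the basolateral anion exchanger of acid-secreting cells, was 7.86, 7.52 and 8.29 in ischemic WT kidneys, against 9.64, 9.48 and 9.4 in WT kidneys (log2 difference -1.62, SE 0.27, adjusted p = 0.00154). Hmx2, a homeobox factor of these cells, was 7.37, 7.48 and 7.42 in ischemic WT kidneys, against 8.27, 8.76 and 8.62 in WT kidneys (log2 difference -1.13, SE 0.21, adjusted p = 0.00321), and Aqp6, a vesicular channel, fell by 0.93. Insrr, an alkali-sensing receptor, was called lower by 1.12 (SE 0.34), but not without HDAC2-/- 2, ischemic HDAC2-/- 3, WT 1, WT 2, WT 3, ischemic WT 1, ischemic WT 2 or ischemic WT 3 (difference -1.24 to -0.99). The marker called higher was Atp6v0d2, by 0.66. The number of falls was 3 without any 1 of the WT or ischemic WT arrays other than WT 3, and the call of Atp6v0d2 was lost without WT 1, WT 2, ischemic WT 2 or ischemic WT 3 (difference 0.52 to 0.67). Atp6v1b1, the pump subunit that defines these cells, was 9.81, 10.61 and 9.92 in ischemic WT kidneys, against 10.95, 10.78 and 10.44 in WT kidneys. In the 21 subunits of the vacuolar proton pump as a family, 3 were called higher (14.3%) and 2 lower (9.52%). In the tenth level group, which holds their median WT level of 9.85, 6.85% of all genes were higher and 21.3% lower. Atp6v1c1 rose by 1.11 and Atp6v1g2 fell by 0.78, while the numbers higher and lower were each 1 in some fits, without WT 1 or ischemic WT 2 for the first and without WT 2 or WT 3 for the second.

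Among transcription factors that specify the nephron, 7 of 26 fell (26.9%) and 1 rose, with a median of -0.37. Their median WT level of 8.5 lies at the border of the eighth and ninth level groups, in which 17.4% and 21.5% of all genes fell. A second factor was called higher without ischemic HDAC2-/- 1. Lhx1, of early nephron patterning, was 7.84, 8.22 and 8.28 in ischemic WT kidneys, against 9.5, 9.46 and 9.4 in WT kidneys (log2 difference -1.34, SE 0.18, adjusted p = 0.00037). Emx1, a homeobox gene, was 7.29, 6.56 and 7.29 in ischemic WT kidneys, against 8.12, 8.61 and 8.53 in WT kidneys (log2 difference -1.37, SE 0.22, adjusted p = 0.00103). Pou3f3, of the loop of Henle and distal tubule, was 9.32, 8.97 and 9.2 in ischemic WT kidneys, against 10.83, 10.24 and 10.13 in WT kidneys (log2 difference -1.24, SE 0.18, adjusted p = 0.000684). Tfap2b, of the distal nephron, fell by 1.01 (SE 0.19). Hnf4a, the regulator of proximal tubule identity, was 10.35, 11.06 and 10.39 in ischemic WT kidneys, against 10.97, 10.66 and 10.35 in WT kidneys and overlapped, and Nr1h4, the bile acid receptor FXR, rose by 1.14 (SE 0.17).

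Of 360 solute carriers, which include the transporters of every segment, 53 fell (14.7%) and 26 rose (7.22%). In the eighth level group, which holds their median WT level of 8.16, 17.4% of all genes fell and 14.9% rose, so neither share was above that of genes of like level. Slc20a1, a sodium-phosphate cotransporter of most cells, was 9.41, 10 and 9.03 in ischemic WT kidneys, against 7.4, 7.6 and 7.78 in WT kidneys (log2 difference 1.89, SE 0.22, adjusted p = 0.000138). Slc38a2, an adaptive amino acid transporter, was 11.74, 12.11 and 11.57 in ischemic WT kidneys, against 10.04, 9.84 and 10 in WT kidneys (log2 difference 1.85, SE 0.17, adjusted p = 2e-05). Slc7a5, the large neutral amino acid transporter, rose by 1.5 and Slc10a6 by 1.65. Apart from Slc4a1, the largest falls were in Slc25a35, by 1.29, Slc27a3, by 1.22, and Slco2b1, an organic anion transporter, by 1.1. Without WT 2 the numbers were 28 lower and 16 higher, and 35 and 34 fell without WT 1 and without ischemic WT 1. Of 92 cytochrome P450 genes, 5 fell (5.43%) and 2 were called higher (2.17%), below the shares over all genes. In the fourth level group, which holds their median WT level of 5.05, 4.28% of all genes were higher and 0.947% lower. Those called higher were Cyp3a13 by 0.98 and Cyp2j9 by 0.59. Cyp2j9 was not called without HDAC2-/- 1, HDAC2-/- 2, WT 1, WT 2, ischemic WT 2 or ischemic WT 3 (difference 0.44 to 0.62). Cyp2u1 was 7.22, 7.46 and 7.33 in ischemic WT kidneys, against 8.93, 8.69 and 8.4 in WT kidneys (log2 difference -1.34, SE 0.24, adjusted p = 0.00251), and Cyp2f2 and Cyp2r1 fell by 1.23 and 0.86. The number of falls was 3 without WT 3, ischemic WT 2 or ischemic WT 3. Of 23 claudins, Cldn4 and Cldn7 rose and Cldn19, Cldn10 and Cldn8 were called lower. The call of Cldn8 was lost without WT 1, WT 3 or ischemic WT 1 (difference -0.69 to -0.45).

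In the glomerulus, 4 of 13 podocyte markers were called lower (30.8%) and 1 higher. In the eighth level group, which holds their median WT level of 8.45, 17.4% of all genes fell. Tcf21, the bHLH factor of podocytes and stroma, was 8.42, 7.72 and 8.26 in ischemic WT kidneys, against 10.41, 10.37 and 10.33 in WT kidneys (log2 difference -2.24, SE 0.21, adjusted p = 2.72e-05), so that all 3 ischemic kidneys lay well below every WT kidney. Dach1, a nuclear cofactor, was 8.39, 8.51 and 8.7 in ischemic WT kidneys, against 9.03, 9.31 and 9.33 in WT kidneys (log2 difference -0.69, SE 0.14, adjusted p = 0.00582). Nphs1, the slit diaphragm protein nephrin, was 7.96, 8.24 and 8.01 in ischemic WT kidneys, against 8.33, 8.68 and 8.44 in WT kidneys, which did not overlap but was not called (adjusted p = 0.217). Foxc2 and Ptpro were also called lower, by 0.67 and 0.67, and Nes higher, by 0.69. Calls were lost for Foxc2 without ischemic HDAC2-/- 3, WT 2, WT 3, ischemic WT 2 or ischemic WT 3 (difference -0.67 to -0.47), for Ptpro without HDAC2-/- 2, ischemic HDAC2-/- 3, WT 2, WT 3, ischemic WT 1 or ischemic WT 3 (difference -0.67 to -0.47) and for Nes without ischemic HDAC2-/- 3, WT 1, WT 2, WT 3, ischemic WT 1 or ischemic WT 2 (difference 0.57 to 0.76).

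Endothelial markers split by gene. Of 22 measured, 8 fell (36.4%) and 3 were called higher, and in the ninth level group, which holds their median WT level, 21.5% of all genes fell. Aplnr, the apelin receptor, was 6.6, 5.83 and 6.71 in ischemic WT kidneys, against 9.03, 8.63 and 8.62 in WT kidneys (log2 difference -2.38, SE 0.24, adjusted p = 4.3e-05). Sox18, a transcription factor of endothelium, was 7.66, 7.33 and 7.05 in ischemic WT kidneys, against 8.8, 8.88 and 8.78 in WT kidneys (log2 difference -1.47, SE 0.21, adjusted p = 0.000597). Ehd3, enriched in glomerular endothelium, was 8.35, 8.48 and 8.26 in ischemic WT kidneys, against 9.76, 9.41 and 9.31 in WT kidneys (log2 difference -1.13, SE 0.17, adjusted p = 0.000731), and Plvap, of fenestral diaphragms, fell by 0.9 (SE 0.15). The pan-endothelial junction gene Cdh5 went the other way, at 10.73, 10.84 and 10.89 in ischemic WT kidneys, against 10.08, 10.05 and 10.09 in WT kidneys (log2 difference 0.75, SE 0.11, adjusted p = 0.000812). Pecam1 and Nos3 were also called higher, by 0.46 and 0.69. Pecam1 was called in 2 of the 12 fits with 1 array left out, those without HDAC2-/- 3 and without ischemic HDAC2-/- 2, and Nos3 was not called without WT 1, WT 3 or ischemic WT 2 (difference 0.58 to 0.66). Without WT 2 or without ischemic WT 2 the number of falls was 5. In mesangium, pericytes and fibroblasts, 3 of 13 fell (23.1%) and none was called higher. The ninth level group also holds the median WT level of these markers, 8.68, so their share of falls was near that of genes of like level. Their median difference was -0.23, against -0.14 over that group. Without WT 1 or without WT 2 the number of falls was 1, and 1 gene was called higher without ischemic HDAC2-/- 2. Itga8, of the mesangium, was 6.75, 7.05 and 6.8 in ischemic WT kidneys, against 7.62, 7.61 and 7.62 in WT kidneys (log2 difference -0.75, SE 0.16, adjusted p = 0.00582). Pdgfrb and Col1a1 overlapped between the groups, with differences of -0.46 and -0.99, and Col1a1 was called lower without ischemic WT 1 (difference -1.5).

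Leukocyte markers rose in part, most in ischemic WT 1 and 3. Of 16 neutrophil markers, 5 were called higher (31.2%) and none lower. In the third level group, which holds their median WT level of 4.98, 2.34% of all genes were higher. Retnlg, a secreted protein of neutrophils, was 7.24, 5.67 and 8.07 in ischemic WT kidneys, against 4, 4.82 and 5.33 in WT kidneys (log2 difference 2.28, SE 0.51, adjusted p = 0.00862). Mmp8, neutrophil collagenase, was 6.79, 6.07 and 7.76 in ischemic WT kidneys, against 5.09, 5.2 and 5.34 in WT kidneys (log2 difference 1.66, SE 0.32, adjusted p = 0.00383). S100a8, a calprotectin subunit, was 6.67, 5.17 and 7.01 in ischemic WT kidneys, against 4.67, 4.65 and 5.14 in WT kidneys, and its call was lost without WT 1, WT 2, ischemic WT 1 or ischemic WT 3 (difference 1.1 to 1.39). Csf3r, the G-CSF receptor, was 6.46, 5.93 and 6.57 in ischemic WT kidneys, against 5.94, 5.96 and 5.9 in WT kidneys and overlapped. The mean over the 16 markers was 5.88, 5.14 and 5.99 in ischemic WT kidneys, against 4.95, 5 and 5.18 in WT kidneys. Ischemic WT 2 lay within the WT range, and the number of calls was 2 without WT 1 or ischemic WT 1 and 3 without WT 2, WT 3 or ischemic WT 3.

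Of 18 markers of monocytes and macrophages, 6 were called higher (33.3%) and none lower, and 3 without WT 1, WT 2, ischemic WT 1 or ischemic WT 3. In the sixth level group, which holds their median WT level of 6.92, 14.9% of all genes were higher. Cd14, the endotoxin coreceptor, was 8.84, 8.56 and 8.81 in ischemic WT kidneys, against 6.99, 7.15 and 7.18 in WT kidneys (log2 difference 1.63, SE 0.2, adjusted p = 0.00017). Itgam, the integrin CD11b, was 7.46, 6.79 and 6.91 in ischemic WT kidneys, against 5.55, 5.55 and 5.92 in WT kidneys (log2 difference 1.38, SE 0.22, adjusted p = 0.00103), and Cd68, a lysosomal protein, was 9.78, 9.41 and 9.33 in ischemic WT kidneys, against 8.36, 8.22 and 8.3 in WT kidneys (log2 difference 1.21, SE 0.18, adjusted p = 0.000824). The resident macrophage markers Adgre1 and Csf1r were not called: Adgre1 was 6.8, 6.14 and 6.27 in ischemic WT kidneys, against 6.83, 6.61 and 6.6 in WT kidneys, and Csf1r was 7.69, 8.05 and 7.38 in ischemic WT kidneys, against 8.85, 7.62 and 7.67 in WT kidneys. The mean over the 18 markers was 7.8, 6.85 and 7.46 in ischemic WT kidneys, against 7.07, 6.9 and 7.03 in WT kidneys. The part of neutrophils and macrophages in the rises of chemokines and cytokines was not tested. None of 7 dendritic cell markers was called by limma, with 2 at an unadjusted p under 0.05, and 1 of 15 T and NK cell markers rose and 1 fell. They were Il7r, up by 0.75, and Nkg7, of cytotoxic granules, at 6.97, 6.61 and 7.2 in ischemic WT kidneys, against 7.92, 7.69 and 8.08 in WT kidneys (log2 difference -0.97, SE 0.2, adjusted p = 0.00547). A second T and NK cell marker was called lower without ischemic WT 3 or HDAC2-/- 3. Of 7 B and plasma cell markers, Cd79a was called lower, by 0.79, but not without WT 2 or ischemic WT 2 (difference -0.71 to -0.66).

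Markers of neighbouring tissue were low, with exceptions among the fat genes. Adipoq, which defines adipocytes, was 4.29, 3.9 and 4.7 in ischemic WT kidneys, against 3.91, 4.55 and 4.38 in WT kidneys, and Plin1 was 6.53, 5.98 and 6.38 in ischemic WT kidneys, against 6.03, 6.07 and 6.03 in WT kidneys. Fabp4, shared by fat, endothelium and macrophages, was 11.54, 10.64 and 11.39 in ischemic WT kidneys, against 10.36, 9.87 and 10.06 in WT kidneys (log2 difference 1.09, SE 0.22, adjusted p = 0.00523). The mean over 10 fat markers was 7.85, 6.98 and 7.54 in ischemic WT kidneys, against 7.03, 6.96 and 6.86 in WT kidneys, the same order of ischemic kidneys as for the macrophage markers, and ischemic WT 2 was also lowest for the neutrophil markers. Whether fat at the hilum took part in these results was not tested. Ucp1, of brown fat, was the other marker called higher, by 0.93, but not without WT 1, WT 2, WT 3, ischemic WT 1 or ischemic WT 3 (difference 0.52 to 1.04). The count of fat markers called higher was 4 without ischemic WT 2. For the adrenal cortex, Star was called higher, by 0.57, but not without WT 1, WT 2, WT 3, ischemic WT 2 or ischemic WT 3 (difference 0.43 to 0.59), and Cyp11a1 was 5.68, 5.33 and 5.53 in ischemic WT kidneys, against 5.32, 5.18 and 5.47 in WT kidneys. For the urothelium, Upk1a was called lower by 0.74, but not without ischemic HDAC2-/- 3, WT 1, WT 3, ischemic WT 1 or ischemic WT 2 (difference -0.74 to -0.61), and Upk2 and Upk3a overlapped between the groups, with differences of -0.09 and 0.03.

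Among 472 microRNA precursors, which the array measures as transcribed RNA and not as mature microRNA, 25 were called higher (5.3%) and 13 lower (2.75%), below the shares over all genes. Precursors are measured at low levels, and in the second level group, which holds their median of 4.33, 1.71% of all genes were higher and 0.676% lower. Mir222 was 5.84, 5.4 and 4.95 in ischemic WT kidneys, against 3.85, 4.26 and 3.89 in WT kidneys (log2 difference 1.4, SE 0.26, adjusted p = 0.0032). Mir3962 was 5.54, 6.1 and 6.21 in ischemic WT kidneys, against 3.92, 4.53 and 3.86 in WT kidneys (log2 difference 1.85, SE 0.25, adjusted p = 0.0004). Mir681 was 6.58, 6.46 and 5.75 in ischemic WT kidneys, against 7.51, 7.45 and 7.62 in WT kidneys (log2 difference -1.26, SE 0.26, adjusted p = 0.00569), and Mir196a-1 fell by 0.95 (SE 0.2). The 4 groups of values did not overlap between ischemic WT and WT kidneys. The number lower was 6 without ischemic WT 2, 7 without WT 3 and 8 without WT 2. Their mature sequences from RefSeq (GRCm38.p6) are shown 5′ to 3′ with the seed, bases 2 to 8, in capitals. They lie on chromosome X for miR-222-3p, chromosome 1 for miR-3962, chromosome 12 for miR-681 and chromosome 11 for miR-196a-5p, and no seed is shared among them.
mmu-miR-222-3p: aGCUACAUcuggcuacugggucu
mmu-miR-3962: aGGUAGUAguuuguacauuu
mmu-miR-681: cAGCCUCGcuggcaggcagcu
mmu-miR-196a-5p: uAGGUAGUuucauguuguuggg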

How the data were processed

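Kidney RNA of 12 mice was hybridised, 1 mouse per array, to the Mouse Gene 2.0 ST GeneChip, and the deposited log2 values were made by the authors by robust multiarray average normalization of all arrays in Transcriptome Analysis Console 4.0. No sequencing depth applies, and the number of arrays limits the precision. Probe sets were named from the platform annotation: of 34472, 23521 had 1 symbol, 1820 several and 9131 none listed. A gene was read from its 1-symbol probe set with the highest mean over all arrays (22180 genes).

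All 12 arrays were fitted with 1 mean per group in limma 3.58.1 (R 4.3.3; lmFit and eBayes, 8 residual and 5.94 prior degrees of freedom), because the 4 groups then share 1 estimate of the spread. Ischemic WT minus WT was called at a Benjamini-Hochberg adjusted p under 0.05 over all probe sets. p-values measure the spread between these mice only. Lists and families were described by counts and medians beside those of all genes. The members and lists were chosen with earlier results of these data known. Named genes were the first 2 members of each list and those with the largest called changes in each direction. Motifs were searched in RefSeq promoters of GRCm38.p6. Replicate numbers do not pair the mice. Alternatives in normalization, filters, model and arrays left out were run, and the ordering of genes by HDAC2-/- levels was added after seeing the data. Data were simulated for this comparison with 34472 probe sets, 200 of them shifted per run. On these, limma called 4.78%, 63.0% and 97.6% of shifts of 0.5, 1 and 2 log2 units. Far more probe sets were called in the real data, 2258 higher and 2472 lower. The adjusted p is stricter when fewer probe sets change, so these shares do not give how many real shifts of a size were callable. Tables were handled in Python 3.11.15 with pandas 2.3.3.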

Additional observations from a re-analysis of the deposited data

How the results depend on the processing

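Probe sets higher and lower in ischemic WT kidneys numbered 2258 and 2472. No called probe set was called in the opposite direction under any alternative fit of probe sets. Without the empirical Bayes step 1502 were higher, with the small RNA mean as a covariate 3753 were lower, and at an unadjusted p under 0.05 and at least 2-fold 763 were higher and 414 lower. With 1 array left out, 1323 to 2544 were higher and 1352 to 2874 lower, with the lowest counts without WT 2. The remaining alternatives stayed within 1.5 times the counts. With the replicate number as a block 2300 were higher and 2606 lower. Same-numbered ischemic WT and WT arrays correlated at -0.09, -0.09 and 0.26 in their deviations, and ischemic WT 2 correlated best with WT 1 (0.29), so the numbers gave no pairing. Over 365 named genes and the alternatives other than the 2 other thresholds, 7815 calls stayed as they were, 516 were lost and 42 were gained. Of the counts by list, 3128 stayed within 1.5 times and 522 did not. In the simulation, with 200 probe sets shifted per run, most shifts of 0.5 log2 units were not called. In the real data, where far more were called, some differences near that size were called. Klf9 (0.47) and Pecam1 (0.46) were such genes, and both calls were lost without some of the arrays.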

Other observations

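Outside every list and family, the 10 genes with the largest called rises included 3 of the small proline-rich proteins of the epidermal envelope. Sprr2g was 7.32, 7.2 and 8.02 in ischemic WT kidneys, against 3.28, 3.25 and 3.03 in WT kidneys (log2 difference 4.33, SE 0.31, adjusted p = 3.71e-06), and Sprr1a and Sprr2f rose by 3.57 and 3.2. Tnfrsf12a, the receptor of TWEAK, was 12.74, 12.27 and 12.43 in ischemic WT kidneys, against 9.14, 9.01 and 8.93 in WT kidneys (log2 difference 3.45, SE 0.14, adjusted p = 2.28e-08). Tnfsf18, a ligand of the TNF family, was 7.81, 7.29 and 6 in ischemic WT kidneys, against 3.55, 3.05 and 3.58 in WT kidneys, with ischemic WT 3 lowest of the ischemic kidneys. Ifrd1 was 9.38, 9.35 and 9.35 in ischemic WT kidneys, against 6.24, 6.25 and 6.43 in WT kidneys, with almost no spread within either group. Ch25h, which makes an oxysterol, rose by 2.75, Prrg4 by 3.23 and Serpina3n, an acute phase protease inhibitor, by 3.15. Saa3, an acute phase protein, was 10.14, 5.98 and 7.96 in ischemic WT kidneys, against 5.37, 4.99 and 4.82 in WT kidneys, and its difference of 2.97 was 1.91 without ischemic WT 1.

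Among the largest falls, Tril, an accessory protein of Toll-like receptors, was 6.87, 6 and 6.25 in ischemic WT kidneys, against 9.13, 9.09 and 8.79 in WT kidneys (log2 difference -2.63, SE 0.25, adjusted p = 2.72e-05). Ppp1r14a, an inhibitor of myosin phosphatase, was 6.81, 6.11 and 6.76 in ischemic WT kidneys, against 8.61, 8.81 and 8.71 in WT kidneys (log2 difference -2.15, SE 0.2, adjusted p = 2.74e-05). Other dual-specificity phosphatases than those of the feedback list went down: Dusp15 and Dusp9 fell by 1.94 and 1.79, and Dusp9 was 7.02, 6.78 and 7.39 in ischemic WT kidneys, against 8.71, 8.85 and 9.01 in WT kidneys. Nrep, Tmem86a and Tldc2 fell by 2.07, 1.97 and 1.91.

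Receptors of the nose were mostly near the floor of the arrays. Of 1105 olfactory receptors, 4 were called higher and 6 lower, and of 285 vomeronasal receptors, none was called higher and 3 were called lower. Olfactory calls were 1 lower without WT 2 or ischemic WT 2, 1 higher without WT 3 and 2 higher without WT 1, HDAC2-/- 1 or HDAC2-/- 2. Vomeronasal calls were 6 lower without WT 1, 5 lower without ischemic WT 1, and 1 higher without ischemic WT 3 or any 1 of the ischemic HDAC2-/- arrays. Vmn1r19 was 4.88, 4.51 and 4.65 in ischemic WT kidneys, against 7.67, 7.52 and 7.79 in WT kidneys (log2 difference -2.98, SE 0.23, adjusted p = 4.78e-06).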
